A study of Mus musculus with 48 samples.

Results

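The contralateral dentate gyrus was examined 3 days after an injection of kainate or saline into the hippocampus of the other hemisphere. The libraries were chosen by their labels alone, as the contralateral dentate gyrus libraries of day 3, and there were 8 of them from 8 mice, 4 kainate and 4 saline, out of 48 libraries from 24 mice in the whole series. The series holds both dentate gyri of each mouse at days 3, 7 and 14. The injected side is called the epileptogenic zone (EZ) and the contralateral side the peri-ictal zone (PIZ), and only the dorsal part of the gyrus was sequenced. All mice were wild-type C57BL/6J, 6 to 8 weeks old per the labels (8 to 10 weeks in the methods), with 2 males and 2 females per group, and each library came from 1 mouse. The kainate group had received a unilateral intrahippocampal kainate injection and had shown convulsive seizures in the hours after it, with seizures scored by behavior and without EEG. The saline group had received the same operation with the vehicle, and all mice of both groups had the anesthesia and the acetaminophen food that followed surgery.

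Kainate is an agonist of ionotropic glutamate receptors, and its focal injection starts status epilepticus (SE), a prolonged seizure that spreads from the injected hippocampus to the other one through commissural fibers. The PIZ lies in the hemisphere that received neither the needle nor the injected drug. Its main neurons are the granule cells, which are rich in the calcium buffer calbindin, and below them lies the subgranular zone, where neural stem cells divide in the adult. Astrocytes and microglia are the resident support and immune cells, and both are known to change their gene expression within days of seizures.

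At day 3 the PIZ of the kainate mice differed widely from that of the saline mice, and far more genes rose than fell. Of 21390 genes tested, out of 55357 in the count table, 1520 were higher (7.11%) and 335 were lower (1.57%) at an adjusted p under 0.01 and a fold over 1.5, the limits used for every differentially expressed gene (DEG) here. Values below are log2 fold changes, kainate over saline, with their standard error from edgeR's quasi-likelihood test with 4 mice a group, and levels are in CPM, counts scaled to a common library size, which rank samples for a gene and do not rank genes. The raised genes had a median log2 fold change of 1.64, and 532 of them rose more than 4-fold. The lowered genes had a median of -0.96, and 35 of them fell more than 4-fold. Leaving out any 1 mouse left 1064 to 1430 raised and 205 to 307 lowered genes, and the leave-out counts of lists below stand beside these. In every one of the 4 kainate libraries the level was above every saline library for 3653 of the tested genes (17.1%) and below for 2911 (13.6%), and this held for 1485 of the 1520 raised and 312 of the 335 lowered DEG. In whole tissue, fewer cells of a type and less RNA per cell cannot be told apart, and this applies to every level below.

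The 8 libraries were of similar depth, from 20503042 to 24718937 counts assigned to genes. Between replicates, log2 CPM correlated across genes at 0.98 to 0.99 in both groups. The first principal component held 54.2% of the variance and separated the groups. The second held 13.9% and followed Xist, which was at 1140 to 1330 CPM in 2 mice of each group and at 0.191 to 0.56 CPM in the other 2. Mitochondrial genes took 6.07 to 6.63% of the counts in the kainate libraries and 6.50 to 8.27% in the saline libraries, and their part in the results was not tested. The saline PIZ of day 3 did not differ from that of days 7 and 14 in any gene by edgeR's test at these limits, with 659 genes at an unadjusted p under 0.05.

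Gfap, the intermediate filament of astrocytes (chr11:102778159-102791738, GRCm39), was far higher in all 4 kainate libraries. Its level was 4110, 4550, 4400 and 4420 CPM in kainate mice 38, 30, 44 and 42, the order used for kainate libraries throughout, and 367, 343, 268 and 409 CPM in saline mice 29, 37, 18 and 41, the order used for saline libraries. The groups were far apart, with little spread inside either, and the fitted rise was 12.6-fold (log2 fold change 3.65 ± 0.44, adjusted p = 2.96e-07). Vim, a second intermediate filament that astrocytes add when they react, was 492, 730, 807 and 577 CPM against 31.1, 32.5, 22.3 and 25.9 CPM (log2 fold change 4.54 ± 0.55, adjusted p = 3.42e-07). Of 37 measured genes known from reactive astrocytes, 25 rose and none fell, beside 7.11% raised and 1.57% lowered among all genes, with a list median of 2.14 beside 0.02 for all genes tested. The summed level of the list was 5760 to 7080 CPM in the kainate libraries and 645 to 834 in the saline libraries. Members counted as pan-reactive rose in 9 of 13 cases, those of the set linked to inflammation (A1) in 8 of 13 and those of the set linked to ischemia (A2) in 8 of 11, so no one set held the rise. Serpina3n, a secreted protease inhibitor, rose by 3.36 ± 0.49. Cd44, the hyaluronan receptor, rose by 4.63 ± 0.70, and Aspg, an asparaginase, by 3.57 ± 0.40.

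Some astrocyte genes went from a trace to a clear signal. Tgm1, a transglutaminase that crosslinks proteins, was 37, 45.6, 25.7 and 45.3 CPM in the kainate libraries and 0.146, 0.13, 0 and 0 CPM in the saline libraries. In sum that is 3624 counts against 6, a ratio of 553 with a 95% interval of 254 to 1510 that covers counting error only. Timp1, an inhibitor of matrix metalloproteinases, had 1698 counts in the kainate libraries and 10 in the saline libraries, a ratio of 156 (84.4 to 325). Its level was 15, 26.9, 14 and 15.2 CPM against 0.194, 0.0433, 0.0928 and 0.137 CPM, with kainate mouse 30 well above the other 3. Outside the astrocyte lists, Klk6, a secreted serine protease, gave 1936 counts against 26 (68.2, 46.4 to 105), and H19, an imprinted noncoding RNA, 934 against 9 (95, 49.9 to 209).

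Genes of resting astrocyte function did not move as one group. Of 17 measured, 7 rose and none fell, beside 7.11% and 1.57% of all genes, with a median of 0.33 (0.199 without kainate mouse 42). Aldh1l1, a folate enzyme that marks astrocytes (chr6:90463409-90577185, GRCm39), shared the smallest adjusted p of the comparison with Tmc6 and Gfra2. Its level was 127, 163, 156 and 127 CPM in kainate and 42, 37.4, 37.8 and 36.9 CPM in saline mice, with no overlap and little spread (log2 fold change 1.90 ± 0.17, adjusted p = 1.45e-09). Aqp4, the water channel of astrocyte endfeet, rose by 1.42 ± 0.27, and Kcnj10, the potassium channel of the same cells, by 1.30 ± 0.19. Slc1a2, the main glutamate transporter, did not pass the test. It was at 2870, 2400, 2420 and 3040 CPM against 3990, 3410, 2810 and 3380 CPM, groups that overlapped (log2 fold change -0.34 ± 0.14, adjusted p = 0.0719).

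**Figure D1:**
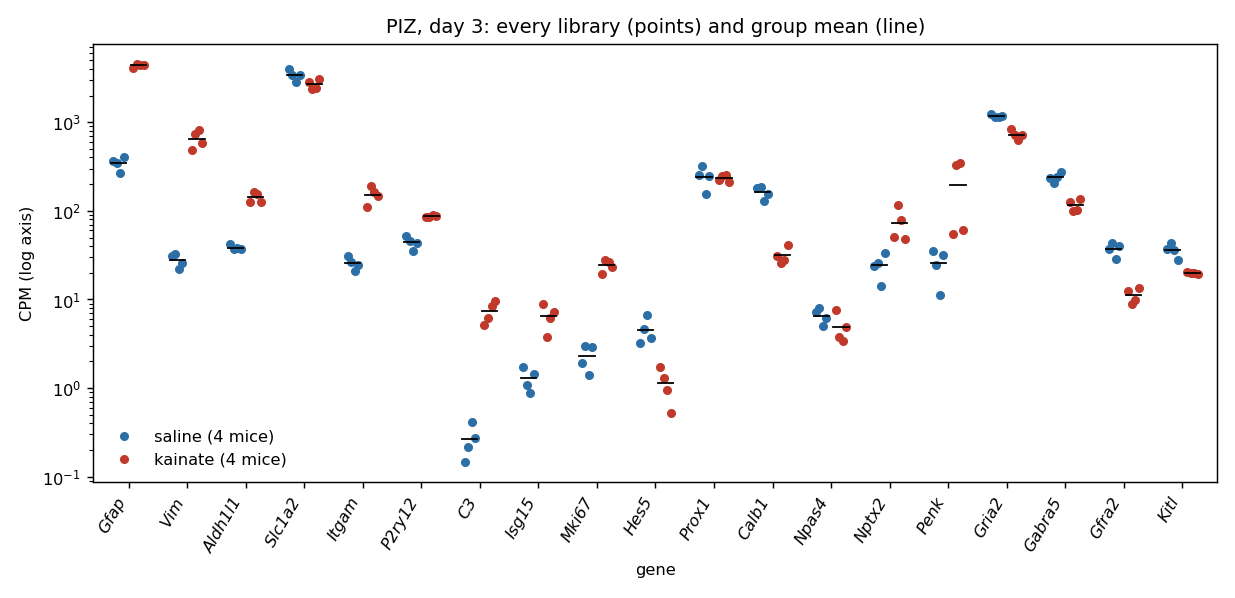
Levels in CPM, on a log axis, of selected genes in each of the 8 PIZ libraries of day 3, one point per mouse, with the group mean as a line. The kainate points of Gfap lie between 4110 and 4550 and the saline points between 268 and 409.

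Of 34 measured chemokine and cytokine genes, 17 rose and 1 fell, against 7.11% raised and 1.57% lowered among all genes. Clcf1, a gp130 ligand, was at 8.36, 19.5, 18.6 and 8.3 CPM in kainate and 0.826, 0.737, 0.743 and 0.957 CPM in saline mice (log2 fold change 4.06 ± 0.51, adjusted p = 6.74e-07). Osmr, the oncostatin M receptor subunit that pairs with gp130, rose by 2.51 ± 0.43. Stat3, the transcription factor that the receptor activates, was 109, 172, 131 and 109 CPM against 45.1, 58.3, 36.6 and 56.5 CPM (log2 fold change 1.41 ± 0.21, adjusted p = 8.09e-06). Socs3, its target and feedback inhibitor, was 8.16, 20.6, 20.3 and 10.9 CPM against 0.292, 0.867, 0.603 and 1.18 CPM (log2 fold change 4.33 ± 0.76, adjusted p = 7.89e-05). For Clcf1 and Socs3 the groups did not overlap, and kainate mice 30 and 44 were the highest of the 8. The ligands Lif and Osm themselves were scarce and rose by 1.96 ± 0.56 and 2.34 ± 0.64, with adjusted p of 0.00934 and 0.00731. Osm rested on 41 counts in the 4 kainate libraries and 7 in the saline libraries, and the call of Lif was lost without any 1 of the 8 mice and that of Osm without any 1 but kainate mouse 38. Without saline mouse 37, 18 or 41, 11 genes of the list rose.

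Among the chemokines, Cxcl10, an interferon-induced attractant of T cells, rose by 3.82 ± 0.88 and Ccl12, an attractant of monocytes, by 3.62 ± 0.91, both from levels under 0.3 CPM in the saline mice. The call of Cxcl10 was lost without kainate mouse 44 and that of Ccl12 without kainate mouse 42 or saline mouse 37 or 41, and both were lost with the mouse as a random block in limma. Il1rn, the interleukin-1 receptor antagonist, had 40 counts in the kainate libraries and no count in any of the 4 saline libraries. Cxcl12, which guides migrating cells in the dentate gyrus, was the 1 member that fell (log2 fold change -0.88 ± 0.20, adjusted p = 0.00129), although the ranges of the groups overlapped.

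Microglial genes rose in both their resting and their activated sets. Beside 7.11% raised among all genes, all 8 pan-myeloid genes rose, with a median of 2.21 and a summed level of 381 to 505 CPM in kainate against 76.8 to 106 CPM in saline mice. Itgam, an integrin chain of myeloid cells and complement receptor, was 110, 189, 163 and 146 CPM against 31.3, 26.3, 21.2 and 24.4 CPM (log2 fold change 2.56 ± 0.42, adjusted p = 3.5e-05). Of 12 measured genes that mark resting microglia, 10 rose and none fell, with a median of 1.34. P2ry12, the purine receptor by which microglia sense injury, was 85.3, 85.1, 88.8 and 87.9 CPM in the kainate mice and 51.6, 45.3, 35.5 and 43.4 CPM in the saline mice (log2 fold change 0.98 ± 0.22, adjusted p = 0.00137). The kainate mice thus kept a narrow range above all saline mice for a gene that marks the resting state. Without saline mouse 18, 5 of the 12 were called. Csf1r, the receptor on which microglia depend for survival, rose by 1.71 ± 0.30, and Olfml3, a secreted protein, by 2.48 ± 0.41. Of 23 measured genes of activated microglia, 17 rose and none fell, with a median of 2.08. Cst7, a protease inhibitor, was at 6.57 ± 0.44 CPM against 0.235 ± 0.203 CPM (mean ± SD, n = 4). The beta-glucan receptor Clec7a rose by 4.01 ± 0.76 and the lipid receptor Trem2 by 1.98 ± 0.44. Cst7 and Clec7a lost their call with the mouse as a random block in limma. Outside the list, Hcar2, a metabolite receptor, gave 197 counts in the kainate libraries against 1 in the saline libraries (ratio 180, 32.0 to 7160).

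Markers of blood-derived leukocytes stayed near the level where they can be counted. Of 18 listed, 8 passed the low-count filter and none of them was called, which at this number is not distinct from the 7.11% raised among all genes, with 2 at an unadjusted p under 0.05 and a summed level of 9.18 to 16.6 CPM in kainate and 8.40 to 13.2 CPM in saline mice. The defining markers Ly6g and Mpo of neutrophils and Cd3e of T cells were among the 10 that did not pass. Ccr2, a receptor of recruited monocytes, was the member closest to the limits (log2 fold change 1.74 ± 0.51, adjusted p = 0.0123), at 1.36 ± 0.367 CPM against 0.403 ± 0.235 CPM, and it was called in 6 of 11 other settings. All 7 macrophage genes of the brain borders were higher in the kainate mice without being called, 3 of them at an unadjusted p under 0.05, with a summed level of 9.42 to 18.7 CPM against 7.78 to 8.11 CPM. The part of these cells in the myeloid genes was not tested.

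Complement, the cascade that tags material for uptake by microglia, rose in 11 of 21 measured genes, beside 7.11% of all genes, with a median of 2.14 and no gene lowered. C3, the central component, was 5.17, 6.14, 8.35 and 9.59 CPM against 0.146, 0.217, 0.418 and 0.273 CPM (log2 fold change 4.76 ± 0.78, adjusted p = 3.29e-05), so it was nearly absent in the saline mice. C4b, of the classical pathway, was 192, 167, 182 and 220 CPM against 31.2, 23.5, 22.6 and 24.5 CPM (log2 fold change 2.90 ± 0.42, adjusted p = 6.16e-06). C1qb, a chain of the recognition complex, rose by 2.49 ± 0.46. The inhibitors were less uniform, since 2 of 6 rose, among them Serping1 (2.14), with a median of 0.37 for the 6.

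Interferon-stimulated genes formed one of the most regular groups. Of 32 measured, 25 rose and none fell, beside 7.11% and 1.57% of all genes, all 32 had a log2 fold change above 0, and the median was 1.86. The summed level was 368 to 585 CPM in the kainate libraries and 148 to 173 in the saline libraries. Leaving out 1 mouse lowered the number raised, to 12 (saline 41), 13 (saline 37), 14 (saline 18), 15 (kainate 38) or 16 (kainate 42). These genes encode antiviral effectors, RNA sensors and large GTPases, and many carry in their promoter an interferon-stimulated response element (ISRE), which the STAT and IRF factors bind. Isg15, a ubiquitin-like protein, was 8.97, 3.77, 6.19 and 7.3 CPM against 1.75, 1.08, 0.882 and 1.46 CPM (log2 fold change 2.34 ± 0.57, adjusted p = 0.00269). Ifit3, an RNA-binding effector, was 24.6, 11.4, 22.9 and 28.1 CPM against 4.76, 5.59, 6.54 and 5.33 CPM (log2 fold change 1.97 ± 0.49, adjusted p = 0.00316). Bst2, the membrane protein tetherin, was 20.9, 11.5, 12.6 and 16.4 CPM against 2.38, 2.47, 1.76 and 2.19 CPM (log2 fold change 2.80 ± 0.53, adjusted p = 0.000212). Kainate mouse 30 was the lowest of the kainate group for Isg15, Ifit3 and Bst2 and still lay above every saline mouse. The call of Isg15 was lost without saline mouse 37, 18 or 41 and that of Ifit3 without kainate mouse 42 or saline mouse 29, 37 or 41, while Bst2 kept its call. Gbp3, a guanylate-binding GTPase, rose from 4.3 ± 0.139 to 22 ± 4.07 CPM (log2 fold change 2.35 ± 0.38, adjusted p = 3.03e-05). Irf7, a factor that amplifies the response, rose by 2.76 ± 0.60. Ifi27l2a, an interferon-induced protein of the mitochondrial membrane, had 1517 counts against 20 (ratio 69.5, 44.8 to 114).

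The core letters of the ISRE, GAAANNGAA on either strand, were searched in the 250 bases before each annotated start in the RefSeq promoter table (GRCm38.p6). They were present in 11 of 21 promoters (52.4%) of the raised interferon genes, of which 18 of 25 had an entry. The share was 6.36% of the 16372 promoters of all tested genes, 8.39% for the raised DEG and 4.53% for the lowered DEG. For the raised genes of reactive astrocytes it was 25.9% of 27 promoters. Those with the letters included Gbp2, which is also in the interferon list, and overlapping promoters of Sphk1 that share the same site. These shares are descriptions, since the letters alone do not show a bound site. The 160 bases up to the start of 4 raised genes are printed to show how these letters sit, 5′ to 3′ on the strand of the gene, with every match in capitals, including the reverse form TTCNNTTTC.
Isg15, chr4:156200819-156200978, minus strand: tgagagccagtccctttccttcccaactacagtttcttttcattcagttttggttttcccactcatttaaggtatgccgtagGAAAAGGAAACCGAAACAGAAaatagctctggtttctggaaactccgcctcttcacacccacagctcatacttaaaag
Ifit3, chr19:34583369-34583528, plus strand: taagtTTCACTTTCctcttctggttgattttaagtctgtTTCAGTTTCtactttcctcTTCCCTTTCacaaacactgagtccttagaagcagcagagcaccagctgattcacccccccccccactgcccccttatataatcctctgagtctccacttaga
Bst2, chr8:71537473-71537632, minus strand: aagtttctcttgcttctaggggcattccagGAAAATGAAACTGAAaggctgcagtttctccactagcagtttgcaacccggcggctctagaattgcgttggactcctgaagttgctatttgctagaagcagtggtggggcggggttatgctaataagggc
Gbp3, chr3:142559884-142560043, plus strand: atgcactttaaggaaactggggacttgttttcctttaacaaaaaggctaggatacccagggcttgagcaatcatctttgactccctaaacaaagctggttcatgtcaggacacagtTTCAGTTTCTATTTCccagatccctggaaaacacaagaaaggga
Isg15 and Ifit3 held 3 matches each and Bst2 and Gbp3 held 2 each. In Isg15, Bst2 and Gbp3 the matches overlapped and formed 1 run, and in Ifit3 they lay apart. The STAT core TTCNNNGAA, which can overlap the ISRE, was in 23.8% of the promoters of the raised interferon genes and 5.94% of those of all tested genes. The AP-1 core TGANTCA was in the same share of the former, 5 of 21 promoters, and in 7.89% of promoters of raised and 3.56% of promoters of lowered DEG, beside 4.78% of all tested genes, and the full cAMP response element TGACGTCA was in 0.932% and 3.24%, beside 2.28%.

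Antigen presentation rose on the class I side. Beside 7.11% raised among all genes, all 7 measured class I genes rose, with a median of 1.91, and H2-K1, a class I heavy chain, rose by 2.07 ± 0.43. B2m, the light chain of every class I molecule, rose by 1.66 ± 0.37, and Nlrc5, the activator of class I transcription, by 2.48 ± 0.53. Of 8 genes that supply peptides, 5 rose, among them the immunoproteasome subunit Psmb8 (2.18 ± 0.43). None of the 6 class II genes was called, a count not distinct from that share, although all 6 had values above 0 with a median of 2.04 and 3 were at an unadjusted p under 0.05. Cd74, the class II invariant chain, was at 2.75 ± 1.18 CPM against 0.885 ± 0.226 CPM (log2 fold change 1.62 ± 0.84, adjusted p = 0.159). Reads of class I genes can be split among near-identical family members, so values of single H2 genes are less certain than the group's.

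**Figure D2:**
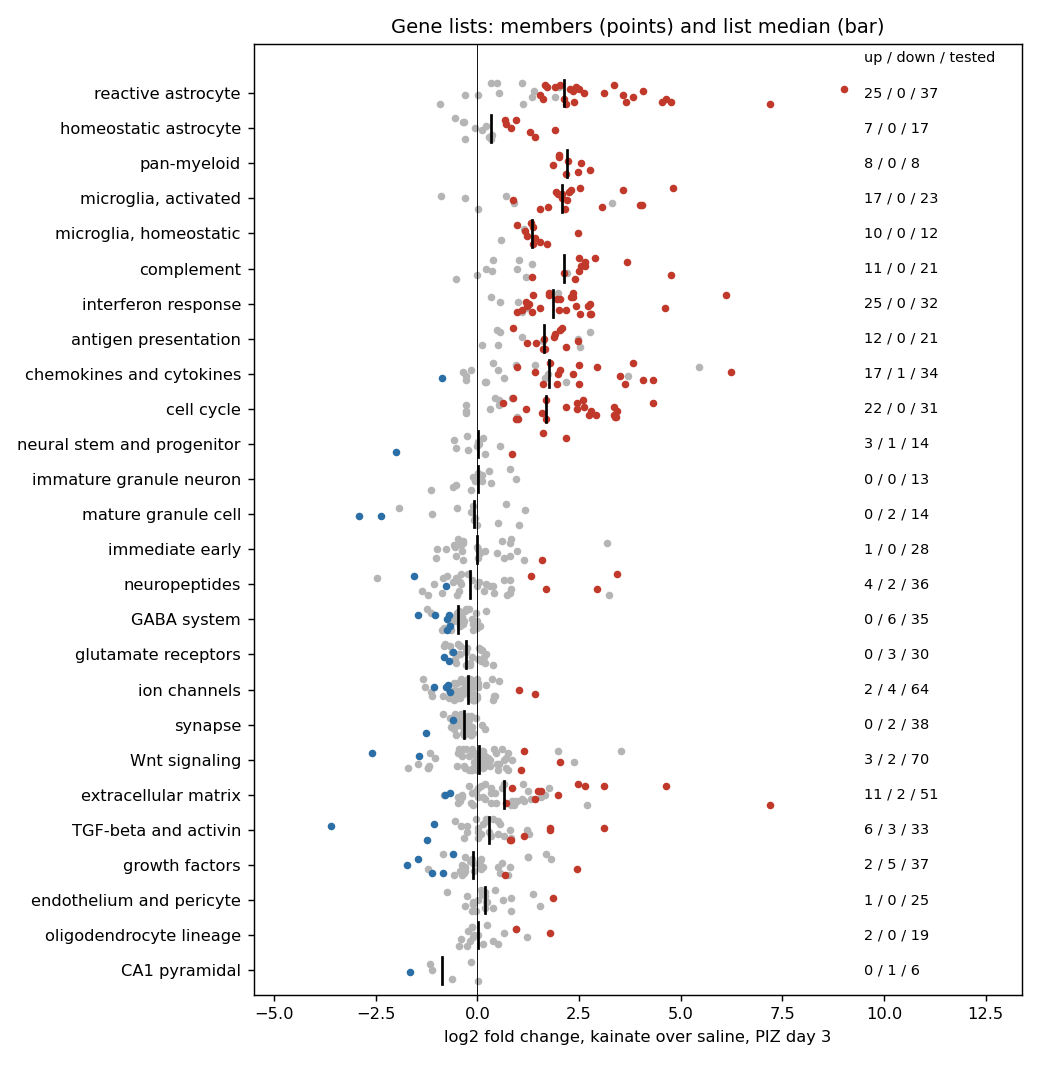
Log2 fold change in the PIZ at day 3 of every measured member of each gene list (points), with the list median (bar) and the numbers raised, lowered and tested at the right. The medians of the pan-myeloid (2.21), reactive astrocyte (2.14) and interferon (1.86) lists lie far above 0, while the GABA list (-0.48) has 6 lowered and no raised member.

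Genes of cell division rose together. Of 31 measured, 22 rose and none fell, beside 7.11% and 1.57% of all genes, with a median of 1.69, or 0.99 over the members with at least 10 counts in every library. Those of G2 and mitosis rose in 16 of 17 cases (median 2.59), and those of G1, S phase and replication in 6 of 14 (median 0.58). Cdk1, the kinase that starts mitosis, was 6.79, 7.21, 7.19 and 8.73 CPM against 0.34, 0.26, 0.371 and 0.501 CPM (log2 fold change 4.33 ± 0.60, adjusted p = 3.49e-06). Mki67, present in cycling cells of every kind, was 19.6, 27.6, 26.7 and 23.1 CPM against 1.9, 2.99, 1.39 and 2.92 CPM (log2 fold change 3.39 ± 0.50, adjusted p = 6.82e-06). Top2a, the topoisomerase of dividing cells, rose by 3.36 ± 0.48. The replication helicase subunit Mcm2 rose by 0.87 ± 0.23. These genes do not say which cell type divided.

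Of 9 genes of radial glia-like stem cells, which start the neurogenic lineage, 3 rose and 1 fell, beside 7.11% and 1.57% of all genes. Nes, an intermediate filament of stem cells and of reactive astrocytes, rose 3.04-fold, and Notch1, the receptor that holds stem cells back from differentiation, by 0.85 ± 0.18. Fabp7, a fatty acid-binding protein of stem cells and astrocytes, was 70.1, 70.1, 102 and 97.3 CPM against 17.9, 16.9, 20.6 and 19.2 CPM (log2 fold change 2.19 ± 0.46, adjusted p = 0.000648). Hes5, a Notch target that maintains stem cells, went the other way, with 1.74, 1.31, 0.959 and 0.525 CPM in kainate and 3.26, 4.59, 6.73 and 3.69 CPM in saline mice (log2 fold change -2.00 ± 0.41, adjusted p = 0.00052). The rise of Notch1 and the fall of Hes5 were thus opposite within the same 8 libraries. None of the 5 genes of intermediate progenitors was called, and none was at an unadjusted p under 0.05. Eomes, their defining factor, was at 0.976 ± 0.223 CPM against 0.974 ± 0.395 CPM. None of the 13 genes of immature granule neurons was called either, with 2 in each direction at an unadjusted p under 0.05 and a median of 0.01. Dcx, the microtubule protein of immature neurons, differed by 0.12 ± 0.28, adjusted p = 0.802. Gmnc, a regulator of the multiciliated cell fate, was among the lowered genes with the largest change (log2 fold change -3.55 ± 0.50, adjusted p = 4.36e-06).

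Of 14 genes of mature granule cells, 2 fell and none rose, beside 1.57% lowered and 7.11% raised among all genes, with a median of -0.09. Calbindin was one of the lowered genes. Prox1, the factor that defines granule cells, was 221, 247, 251 and 212 CPM against 257, 319, 153 and 246 CPM, with groups that overlapped (log2 fold change -0.07 ± 0.26, adjusted p = 0.881). Calb1, which encodes calbindin (chr4:15881155-15908085, GRCm39), was 30.7, 25.6, 27.9 and 41.3 CPM in kainate and 179, 186, 130 and 155 CPM in saline mice. Every kainate library was under every saline library, at 0.193 of the saline level (log2 fold change -2.37 ± 0.35, adjusted p = 8.74e-06). The second lowered member was Tdo2, the tryptophan dioxygenase that granule cells express (log2 fold change -2.91 ± 0.59, adjusted p = 0.000407). Dsp, a desmosome protein of granule cells, was lower in all 4 kainate libraries without passing the limits (log2 fold change -1.92 ± 0.56, adjusted p = 0.0111), which it passed in 6 of 12 other settings.

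Immediate early genes are induced by neuronal activity. Of 28 measured, 1 rose and none fell, with a median of 0.00, and at this list size the count is not distinct from the 7.11% raised and 1.57% lowered among all genes. Fos was 12.2, 12.5, 9.15 and 8.21 CPM against 6.17, 6.41, 2.14 and 4.42 CPM, with every kainate library above every saline library and a wide standard error (log2 fold change 1.14 ± 0.61, adjusted p = 0.178). Arc, which acts at recently active synapses, was 70.8, 69.2, 34.8 and 45.8 CPM against 105, 76.2, 46 and 52.2 CPM (log2 fold change -0.34 ± 0.42, adjusted p = 0.599), and the groups overlapped. Npas4, induced by depolarization, was 7.68, 3.77, 3.44 and 4.91 CPM against 7.19, 7.98, 4.97 and 6.2 CPM (log2 fold change -0.41 ± 0.65, adjusted p = 0.692). The 1 raised member was Nptx2, a secreted pentraxin that gathers AMPA receptors, at 51, 116, 78.2 and 47.6 CPM against 23.7, 26.1, 14.2 and 33.1 CPM (log2 fold change 1.59 ± 0.42, adjusted p = 0.00518). Its call was lost without kainate mouse 30 or saline mouse 29, 37 or 18.

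Of 36 measured genes of neuropeptides and their receptors, 4 rose and 2 fell, shares not far from the 7.11% and 1.57% of all genes, so the values below are of single genes and not of the family. Npy, neuropeptide Y, was 129, 120, 121 and 92.8 CPM against 35.3, 34.7, 28.8 and 43.8 CPM (log2 fold change 1.70 ± 0.43, adjusted p = 0.00377). Penk, the precursor of enkephalins, was 55.2, 328, 345 and 61 CPM against 35.1, 24.5, 11.1 and 32.1 CPM (log2 fold change 2.94 ± 0.73, adjusted p = 0.00297). The kainate mice fell apart for Penk, with mice 30 and 44 far above mice 38 and 42, while all 4 were above the saline mice. Gal, the precursor of galanin, rose by 3.44 ± 0.65 and the somatostatin receptor Sstr2 by 1.33 ± 0.29. Cck, cholecystokinin, was 83.5, 70.8, 71.1 and 94.7 CPM against 125, 122, 132 and 171 CPM (log2 fold change -0.78 ± 0.19, adjusted p = 0.0021). The call of Penk was lost without kainate mouse 30 or 44 or saline mouse 37, 18 or 41, and that of Npy without kainate mouse 44 or saline mouse 29, 37 or 18. Cort, the precursor of cortistatin, fell to 0.924 ± 0.268 from 2.77 ± 0.938 CPM (log2 fold change -1.57 ± 0.43, adjusted p = 0.00755).

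Some genes of inhibitory transmission fell. Of 35 measured, 6 fell and none rose, against 1.57% lowered among all genes, with a median of -0.48 and 2 of 35 values above 0. Gabra5, the subunit of extrasynaptic GABA-A receptors, was 126, 99, 103 and 135 CPM against 233, 207, 241 and 275 CPM (log2 fold change -1.05 ± 0.18, adjusted p = 6.45e-05). Abat, the enzyme that degrades GABA, was 143, 107, 125 and 177 CPM against 219, 222, 257 and 225 CPM (log2 fold change -0.74 ± 0.11, adjusted p = 9.19e-06). Slc6a11, a glial GABA transporter, fell (-0.69 ± 0.19), as did the receptor subunits Gabrg1 (-0.74 ± 0.20) and Gabrg3 (-0.67 ± 0.19). Kit, a receptor found on interneurons, also fell (log2 fold change -1.46 ± 0.40, adjusted p = 0.00723), but lost its call in 6 of 12 other settings. The synthesis enzymes were not called, with Gad1 at -0.43 ± 0.18, adjusted p = 0.0775 and Gad2 at -0.21 ± 0.24, adjusted p = 0.578. The number lowered was 2 without kainate mouse 30 or 44 or saline mouse 18, 3 without kainate mouse 42 or saline mouse 29, and 2 when libraries were scaled by their totals alone.

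Glutamate receptor, channel and synaptic genes are given beside the 7.11% raised and 1.57% lowered among all genes. Of 30 glutamate receptor genes, 3 fell and none rose, and all 3 belonged to the AMPA receptor group, whose 10 members had values below 0 (median -0.56). Gria2, the subunit that keeps AMPA receptors impermeable to calcium, was 828, 714, 631 and 716 CPM against 1230, 1140, 1150 and 1160 CPM (log2 fold change -0.70 ± 0.17, adjusted p = 0.00248). Gria3 fell with -0.61 ± 0.16 and the auxiliary subunit Cacng3 with -0.83 ± 0.22, and Gria1 did not pass (-0.67 ± 0.29, adjusted p = 0.0904). Of 7 kainate receptor genes none was called, with 1 at an unadjusted p under 0.05 and a median of -0.125. Of 64 ion channel genes, 2 rose and 4 fell (median -0.23). The potassium channel modulator Kcnip3 and the calcium channel subunit Cacna2d2 rose, by 1.03 ± 0.18 and 1.41 ± 0.34. The M-current channel Kcnq3, the sodium-activated potassium channel Kcnt2, the T-type calcium channel Cacna1i and the sodium channel Scn1a fell, with -0.78, -0.72, -1.07 and -0.68. Of 38 synapse genes 2 fell, with a median of -0.33 for the list. The lowered ones were Camk4 (-1.27 ± 0.30), a calcium-dependent kinase of the nucleus, and Rims1 (-0.59 ± 0.17), a scaffold of the active zone. Rims1 lost its call in 7 of 12 other settings. These small counts depended on single mice, since 1 glutamate receptor gene was lowered without kainate mouse 44 or 42 or saline mouse 29 or 41, no ion channel gene without kainate mouse 30 or saline mouse 29, and no synapse gene without kainate mouse 30 or 44 or saline mouse 18 or 41.

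The summed level of markers of the neighboring CA1 field was lower in the same libraries, with 1 marker called. Among all genes 7.11% were raised and 1.57% lowered. The 6 measured CA1 markers summed to 105 to 230 CPM in kainate and 231 to 428 CPM in saline mice, with a median of -0.87. Fibcd1 was the 1 called, at 20.9, 25.4, 40.5 and 71.1 CPM against 134, 102, 125 and 131 CPM (log2 fold change -1.64 ± 0.42, adjusted p = 0.00422). Its call was lost in 6 of the 8 fits without 1 mouse. Spink8 (-1.13 ± 0.60, adjusted p = 0.176) and Wfs1 (-0.16 ± 0.43, adjusted p = 0.819) were not called. The 10 genes of CA3 and mossy cells had no call, which at this number is not distinct from the shares of all genes. They had 1 in each direction at an unadjusted p under 0.05, at 143 to 282 CPM against 165 to 445 CPM. The part of neighboring tissue in the lowered neuronal genes was not tested.

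The Wnt pathway was examined because the study describes it at this time. Besides RNA, the study stained active beta-catenin protein in the PIZ at day 3, which RNA levels do not measure. The paper states that beta-catenin RNA did not follow this protein in the PIZ. Wnt ligands bind Frizzled receptors and either stabilize beta-catenin or act through planar polarity and calcium. Of 70 measured genes, 3 rose and 2 fell (median 0.03), shares near the 7.11% and 1.57% of all genes, so the counts show nothing particular to the pathway. Wnt9a was 1.37, 1.52, 2.48 and 1.81 CPM against 16.5, 7.63, 8.49 and 11.1 CPM (log2 fold change -2.60 ± 0.51, adjusted p = 0.000302), with no overlap. Wnt7b, a ligand made by neurons, was 77.6, 112, 85.3 and 80.1 CPM against 34.7, 47.9, 51 and 35.4 CPM (log2 fold change 1.07 ± 0.17, adjusted p = 1.9e-05). The ligand Wnt10a rose by 2.02 ± 0.46 and Celsr1, a cadherin of planar polarity, by 1.14 ± 0.18, while Ror1, a Wnt5a receptor, fell (log2 fold change -1.43 ± 0.29, adjusted p = 0.000415). The study's text gives values of the next 14 genes for the EZ and not for the PIZ, although it remarks on beta-catenin RNA in both. These genes were chosen with these mice in view, so they are no independent evidence of a direction. Among the positive effectors, Fzd1 differed by 0.27 ± 0.26, adjusted p = 0.474, Lrp5 by 0.75 ± 0.25, adjusted p = 0.0253, Lef1 by 0.10 ± 0.21, adjusted p = 0.783 and Ctnnb1, beta-catenin itself, by 0.01 ± 0.10, adjusted p = 0.955. Of the negative regulators, Gsk3b differed by -0.32 ± 0.11, adjusted p = 0.0235, Btrc by -0.31 ± 0.10, adjusted p = 0.0185, Apc by -0.21 ± 0.14, adjusted p = 0.287, Wif1 by -0.15 ± 0.40, adjusted p = 0.822 and Dkk3 by -0.47 ± 0.19, adjusted p = 0.0687. Among the noncanonical genes, Wnt5b differed by -0.01 ± 0.32, adjusted p = 0.986, Ror2 by -0.00 ± 0.63, adjusted p = 1, Rhoa by 0.42 ± 0.13, adjusted p = 0.0157, Prickle2 by -0.51 ± 0.17, adjusted p = 0.0269 and Prickle3 by 0.22 ± 0.30, adjusted p = 0.632. None of these 14 passed the limits in the PIZ, although Lrp5 did in 5 of 12 other settings, and Axin2, the classic beta-catenin target, was at 0.08 ± 0.12, adjusted p = 0.685.

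Of 51 matrix genes, 11 rose and 2 fell (median 0.66), beside 7.11% and 1.57% of all genes. Ncan, a lectican made by astrocytes, rose by 0.85 ± 0.13, while Bcan, another lectican, fell (-0.80 ± 0.15), so members of one family moved apart. Col16a1, a minor collagen, rose by 2.48 ± 0.45. Sparcl1, an astrocyte protein that promotes synapse formation, fell (log2 fold change -0.68 ± 0.14, adjusted p = 0.000358). The number raised was 7 without saline mouse 29. Of 33 genes of TGF-beta and activin signaling, 6 rose and 3 fell, and 2 or 3 rose without kainate mouse 30 or 44 or saline mouse 29, 18 or 41. Tgfb1 rose by 1.77 ± 0.38, and Fst, follistatin, the secreted trap of activin, was 0.364, 0.737, 0.12 and 0.143 CPM against 4.67, 5.5, 1.81 and 4.92 CPM (log2 fold change -3.59 ± 0.69, adjusted p = 0.000228). Acvr2a, an activin receptor, also fell (log2 fold change -1.07 ± 0.19, adjusted p = 8.41e-05). Of 37 growth factor and receptor genes, 2 rose, a share near that of all genes, and 5 fell, with 2 or 3 lowered without kainate mouse 30 or 42 or saline mouse 37 or 18. Gfra2, the neurturin receptor, was 12.4, 8.85, 9.83 and 13.6 CPM against 36.8, 43, 28.8 and 39.6 CPM, with a spread small beside the difference (log2 fold change -1.73 ± 0.16, adjusted p = 1.45e-09). Erbb4, the neuregulin receptor, fell (-1.12 ± 0.28) and Igfbp2, a binding protein of insulin-like growth factors, rose (2.46 ± 0.59).

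For the shorter lists of stress, death, glial lineage and vessel genes, the counts stand beside 7.11% raised and 1.57% lowered among all genes, and those of p53, sterol and vessel genes lie near these shares. Of 6 inflammasome genes 4 rose, among them the adaptor Pycard (2.63 ± 0.43) and the pore former Gsdmd (1.63 ± 0.35), and Casp8, the initiator of death receptor apoptosis, rose by 1.69 ± 0.32. Of 15 p53 genes and targets 2 rose, Gadd45a (1.42 ± 0.27) and Gadd45g (0.96 ± 0.27). Of 27 stress and metal genes, 8 rose and 1 fell. The iron carrier Trf rose by 1.95 ± 0.35 and the iron uptake receptor Tfrc, at the fold limit (-0.59 ± 0.13), was called lower but lost its call in 7 of 12 other settings and without kainate mouse 30, 44 or 42 or saline mouse 18 or 41. Of 23 sterol genes 2 rose, Abca1 (1.24 ± 0.32), a cholesterol exporter, and Npc2 (1.16 ± 0.30), a lysosomal cholesterol carrier, and neither was called without kainate mouse 42 or any 1 saline mouse. Precursor genes of oligodendrocytes rose in 2 of 8 cases, Gpr17 (1.78 ± 0.29) and Olig1 (0.95 ± 0.17). None of the 11 myelin genes was called, with 1 at an unadjusted p under 0.05, and Mbp was at -0.22 ± 0.28, adjusted p = 0.601. Of 25 vessel genes 1 rose, Icam1 (1.86 ± 0.49), an adhesion molecule that leukocytes bind, and Cldn5, of endothelial tight junctions, did not pass (0.62 ± 0.28, adjusted p = 0.103). Among lists of other tissue that a dissection can carry along, choroid plexus genes summed to 22.9 to 35.7 CPM against 29.4 to 35.5, thalamus genes to 95.2 to 115 against 93.2 to 137 and meningeal genes to 124 to 255 against 191 to 252, ranges that overlapped. In these 3 lists, with 2 to 3 genes each at an unadjusted p under 0.05, Ogn, a matrix protein of fibroblasts, was the 1 gene called, and it was lower (-2.34 ± 0.38). Blood genes had no call and 2 lowered at an unadjusted p under 0.05, with sums of 118 to 151 CPM against 168 to 237, ranges that did not overlap.

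Outside these lists, Tmc6, a protein of the TMC family, was 22.1, 27.8, 38.4 and 21.9 CPM against 4.76, 4.33, 3.81 and 3.83 CPM (log2 fold change 2.72 ± 0.25, adjusted p = 1.45e-09). The 10 raised genes with the smallest p were Tmc6, Aldh1l1, 2810459M11Rik (1.73 ± 0.17), the latent TGF-beta binding protein Ltbp3 (1.80 ± 0.19), Ttyh3 of an anion channel family (0.80 ± 0.08), the secreted protein Lgi4 (1.14 ± 0.12), the calcium-binding S100a6 (3.75 ± 0.42), Aspg, the galectin Lgals1 (3.50 ± 0.39) and the unconventional myosin Myo10 (0.89 ± 0.10). Among genes with the largest rise, Cd72, an inhibitory receptor of immune cells, had 460 counts in the kainate libraries against 1 in the saline libraries (ratio 421, 75.2 to 16700), and the serpin Serpina9 309 against 1 (283, 50.4 to 11200). Fam110c had 207 against 1 (190, 33.7 to 7520), with 4 to 144 counts in the single kainate libraries, so the kainate mice differed widely. Fcgr4, an Fc receptor for immunoglobulin G, had 521 against 11 (43.4, 24 to 87.4). Among the lowered genes, Btg3, an antiproliferative protein, was 5.41, 5.69, 7.31 and 6.63 CPM against 14.2, 11.7, 11.7 and 12.9 CPM (log2 fold change -1.01 ± 0.10, adjusted p = 6.1e-09). Camkk2, the kinase upstream of Camk4, was also lowered (log2 fold change -0.93 ± 0.11, adjusted p = 1.14e-07). With Gfra2 and Gmnc, the other lowered genes with the smallest p were the long noncoding RNAs 2900052N01Rik (-1.86 ± 0.19) and 2810407A14Rik (-2.90 ± 0.42), Fhip1a (-2.92 ± 0.37), the cytochrome P450 Cyp4f15 (-2.00 ± 0.29), and the GTPase-activating proteins Arhgap26 (-1.26 ± 0.18) and Ralgapa2 (-0.99 ± 0.14). The largest falls also included Rtl3 (-3.45 ± 0.67), the long noncoding RNA Gm45187 (-3.04 ± 0.53), the orphan receptor Gpr101 (-3.25 ± 0.78) and the calcium sensor Otof (-2.69 ± 0.73). The saline level of Gpr101 was uneven, at 6.23 ± 6.46 CPM (mean ± SD, n = 4), and so was that of Otof, at 4.64 ± 3.49 CPM. Gpr101 lost its call in 6 of 11 other settings and without kainate mouse 38 or saline mouse 18, and Otof in 5 of 11 and without any 1 mouse but saline mouse 41. Of the raised DEG 1379 were protein-coding and 70 long noncoding, and of the lowered DEG 281 and 30.

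The injected side of the same mice served to show where the PIZ differed. In the EZ at day 3, 3433 genes rose (16%) and 1838 fell (8.59%). Of the genes raised in the PIZ, 1290 were raised in the EZ too, which is 84.9% of the PIZ list and 37.6% of the EZ list. Of the lowered genes, 251 were shared, 74.9% of the PIZ list and 13.7% of the EZ list. Both sides came from the same 8 mice, so these shares are not a repeat in other animals. The raised genes of the PIZ had a median of 1.64 there and 1.67 in the EZ.

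The difference between the sides was tested for each gene, and 8 genes had a higher (0.0374%) and 6 a lower (0.0281%) kainate effect in the EZ than in the PIZ. With the mouse as a block, since both libraries came from the same animal, the counts were 19 and 18, and 9 of the 14 genes were called again. Without mouse 44 the sides differed in 209 genes, and without any 1 of the other 7 mice in 2 to 5. With only the 4 groups compared in the model, none of the 14 was called (adjusted p of 0.019 for Kitl, 0.0171 for Cxcl5 and 0.017 for Hmcn2). Kitl was called without any 1 of the 8 mice, Cxcl5 and Hmcn2 in 7 of the 8 cases, and 10 of the 14 genes were lost in 5 to 7 cases. Kitl, stem cell factor (chr10:99851492-99936278, GRCm39), fell in the PIZ and rose in the EZ. In the PIZ it was 20.4, 19.7, 19.7 and 19.5 CPM in kainate and 36.9, 43, 35.7 and 27.8 CPM in saline mice (log2 fold change -0.85 ± 0.21, adjusted p = 0.00244). In the EZ the means were 65.9 ± 26.4 CPM in kainate and 29.2 ± 2.88 CPM in saline mice (SD, n = 4), an effect of 1.17 ± 0.21. The difference, EZ minus PIZ, was 2.03 ± 0.29 (adjusted p = 0.000474). Cxcl5, a neutrophil attractant, rose in the PIZ and was not called in the EZ. It was 3.15, 1.6, 4.04 and 3.34 CPM against 0.146, 0.347, 0.279 and 0.273 CPM in the PIZ (log2 fold change 3.50 ± 0.58, adjusted p = 3.57e-05), which is 288 counts against 23 (ratio 11.5, 7.49 to 18.4). In the EZ its means were 0.944 ± 0.992 CPM in kainate and 2.61 ± 1.27 CPM in saline mice (-1.48 ± 0.49, adjusted p = 0.012), so the difference of -4.98 ± 0.76 (adjusted p = 0.000607) rests on scarce counts and on a saline EZ above the saline PIZ. Btg3 fell in the PIZ and was at -0.12 ± 0.10 in the EZ, a difference of 0.89 ± 0.14 (adjusted p = 0.000676). Hmcn2, a matrix protein of the hemicentin family, rose on both sides, by 1.98 ± 0.30 in the PIZ and 4.78 ± 0.30 in the EZ, a difference of 2.80 ± 0.42 (adjusted p = 0.000607). Irs2, an insulin receptor substrate, and Ctps1, a CTP synthase, had effects under the fold limit in the PIZ (-0.36 and -0.51) and differed by 0.81 ± 0.15 and 0.87 ± 0.14 between the sides.

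**Figure D3:**
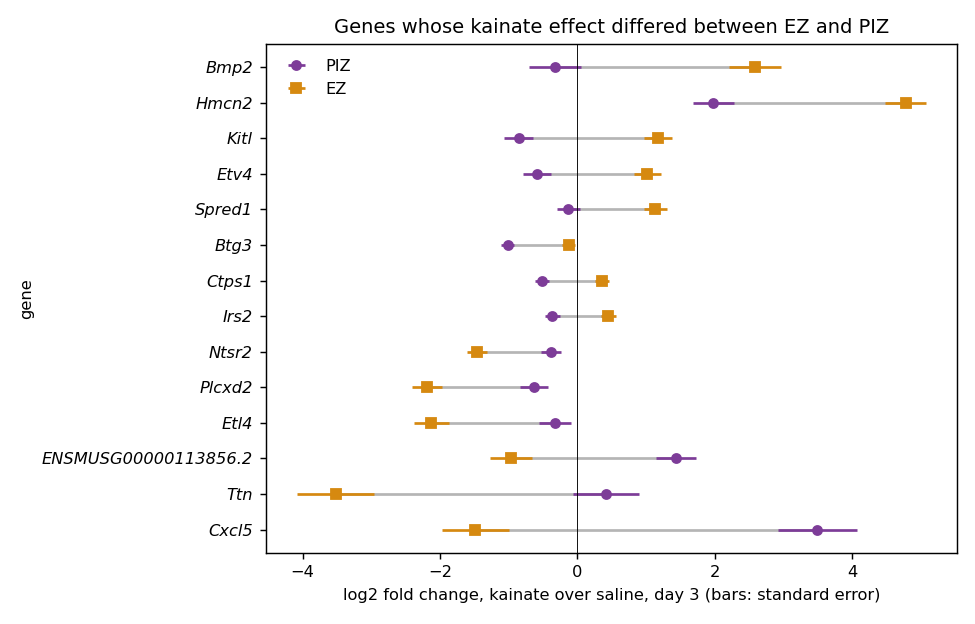
Kainate effect (log2 fold change at day 3) in the PIZ and in the EZ, with standard errors, for the 14 genes whose effect differed between the sides. Kitl lies below 0 in the PIZ and above 0 in the EZ, and Cxcl5 above 0 in the PIZ and below 0, without a call, in the EZ.

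Groups of the PIZ can be set beside the EZ in the same way. The immediate early genes, with 1 raised in the PIZ, had 19 of 28 raised in the EZ, where 16% of all genes rose against 7.11% in the PIZ, and medians of 0.00 and 1.87. The difference was not called for any one of the 28, the nearest being Npas4 at 3.65 ± 0.91 (adjusted p = 0.044). Fos was at 3.45 ± 0.63 in the EZ, and its difference of 2.31 ± 0.85 did not pass (adjusted p = 0.155). Gfap rose by 3.65 ± 0.44 in the PIZ and was at 1.28 ± 0.40 in the EZ, a difference of -2.38 ± 0.56 with an adjusted p of 0.0394, over the limit. P2ry12 was at -0.26 ± 0.22 in the EZ, and the difference of -1.24 ± 0.31 did not pass either (adjusted p = 0.0449). Genes of intermediate progenitors, with none called in the PIZ, had 4 of 5 lowered in the EZ, where 8.59% of all genes fell against 1.57% in the PIZ, and Eomes differed by -2.76 ± 0.84 (adjusted p = 0.0898).

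By day 7, in other mice, most of the PIZ response was no longer called. At that time 32 genes were higher (0.15%) and 11 lower (0.0514%), and at day 14 there were 2 and 1. Of the genes raised at day 3, 22 were raised at day 7, which is 1.45% of the first list and 68.8% of the second, and of the lowered genes 8 were lowered again (2.39% and 72.7%). For the genes raised at day 3 the median effect was 0.68 in the mice of day 7 and 0.25 in those of day 14, and 96.8% were above 0 at day 7. The lowered genes had medians of -0.34 and -0.34. Both sets were chosen by their day 3 values, which enlarges their day 3 medians, and the part of this choice in the decline was not tested. Interferon genes had a median of 1.70 at day 7 beside 1.86 at day 3, with 3 called, and cell cycle genes 0.58 beside 1.69, with none called.

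By the test of the difference between the days, the day 7 effect was higher for 3 genes (0.014%) and lower for 2 (0.00935%). These counts depended on the model, with 14 higher and 147 lower when only the groups compared were fitted and 38 and 103 in limma with quality weights. Aldh1l1 fell back from 1.90 ± 0.17 at day 3 to 0.12 ± 0.17 at day 7, a difference of -1.78 ± 0.24 (adjusted p = 0.000133). Lgi4 did the same, with a difference of -0.95 ± 0.17 (adjusted p = 0.00935). Abat returned from -0.74 ± 0.11 to 0.20 ± 0.11, a difference of 0.94 ± 0.16 (adjusted p = 0.00281). Leaving out 1 mouse gave 2 to 9 such genes, and Aldh1l1 and Atp10b were called in all 16 cases, while Lgi4 was lost in 13, Abat in 8 and 9630013A20Rik in 5 of them. The lipid flippase Atp10b and the long noncoding RNA 9630013A20Rik were not called at day 3 (-0.47 ± 0.25, adjusted p = 0.168 and -0.92 ± 0.35, adjusted p = 0.0528) and were at 1.87 ± 0.24 and 2.06 ± 0.34 at day 7. Their differences were 2.34 ± 0.34 and 2.98 ± 0.49, with adjusted p of 0.000416 and 0.0024.

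**Figure D4:**
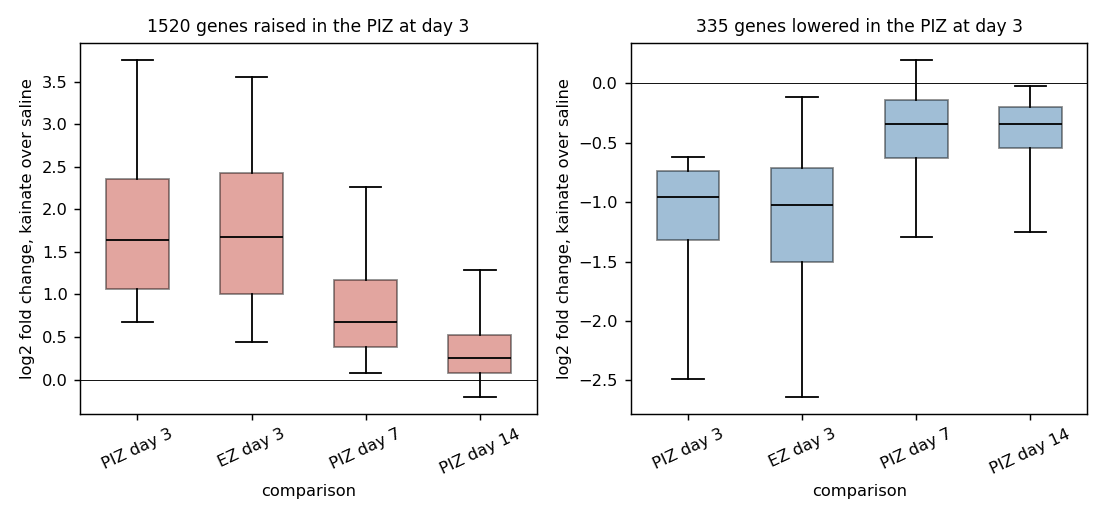
Kainate effect (log2 fold change) of the DEG of the PIZ at day 3 in the EZ at day 3 and in the PIZ at days 7 and 14, over the 1520 raised and 335 lowered genes. Boxes span the quartiles with the median as a line, and whiskers run from the 5th to the 95th percentile. The median of the raised genes is 1.64 in the PIZ at day 3, 1.67 in the EZ, 0.68 at day 7 and 0.25 at day 14. The genes were chosen by their values in the PIZ at day 3, which enlarges the effect shown there.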

How the data were processed

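Dorsal dentate gyri were dissected from both hemispheres, and RNA of all samples was extracted in 1 run. Poly-A selected stranded libraries were sequenced as read pairs. Per the labels and methods, the authors trimmed reads with fastp 0.20.1, aligned them to GRCm39 with HISAT2 2.2.1 and counted them per Gencode M28 gene with featureCounts of Subread 1.6.4, with strand, 1 primary alignment for multimapping reads and the largest overlap. The deposited values are these raw counts. Genes passing filterByExpr over the 12 groups were scaled by TMM and tested in edgeR 4.0.16 (R 4.3.3) with 1 model of group means over all 48 libraries, the quasi-likelihood test and Benjamini-Hochberg adjustment. A DEG had an adjusted p under 0.01 and a fold over 1.5, the authors' limits. The authors used DESeq2, which served as an alternative (DESeq2 1.42.0) beside limma 3.58.1. Gene positions came from a later Gencode annotation of GRCm39, which held 98.90% of the gene identifiers. Intervals cover counting error only. The scripts were tested on simulated counts.

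The groups and the 36 gene lists were chosen with earlier results of these data known. Some genes were in more than 1 list, with 874 distinct genes in 913 entries. Named genes were the 10 with the smallest p and the 10 DEG with the largest change and a mean of at least 1 CPM in each direction, up to 6 called members a list and direction, the 2 most abundant members, members against the majority, the genes of the difference tests and the Wnt genes that the study names. Further genes, such as markers set beside a result, were named after their values were seen. Of the genes these rules give for the lists, the text names a part, and a few are not reported here, though counts over lists include them. EZ and PIZ libraries with the same number came from the same mouse. Their deviations from the group means correlated at -0.05 to 0.38, and a fit with the mouse as a block was run for this reason.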

Additional observations from a re-analysis of the deposited data

Results flagged for a closer look

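Of 84 groups of 4 libraries, for 42 genes, 2 held a library far from the other 3. Chance gives 1 in 20 for independent groups. These groups come from the same 8 libraries and from picked genes, so no comparison with that rate is drawn. Timp1 in kainate mouse 30 was at 26.9 CPM, with the nearest kainate library at 15.2 CPM. Abat in saline mouse 18 was at 257 CPM, with the nearest saline library at 225 CPM.

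The kainate effect at day 3 differed between EZ and PIZ in 14 genes by the test of the difference. It was higher in the EZ, in log2 units, for Hmcn2 (2.80), Bmp2 (2.91), Kitl (2.03), Etv4 (1.61), Spred1 (1.27), Btg3 (0.889), Ctps1 (0.868) and Irs2 (0.814). It was lower in the EZ for Cxcl5 (-4.98), the titin gene Ttn (-3.94), ENSMUSG00000113856.2 (-2.40), Etl4 (-1.81), Plcxd2 (-1.56) and Ntsr2 (-1.08). With the mouse as a fixed block, Bmp2, Ttn, Etl4, Plcxd2 and Ntsr2 were no longer called. Kitl, lowered in the PIZ and raised in the EZ, and ENSMUSG00000113856.2, raised in the PIZ and lowered in the EZ, were the 2 DEG of the PIZ that were called in the opposite direction on the injected side.

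Between day 7 and day 3, the kainate effect in the PIZ differed in 5 genes. It was lower at day 7 for Aldh1l1 (-1.78) and Lgi4 (-0.951), both raised at day 3. It was higher at day 7 for 9630013A20Rik (2.98), Atp10b (2.34) and Abat (0.938).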

How the results depend on the processing

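The PIZ at day 3 had 1855 DEG, and this count stayed within 1.5 times under another scaling (1849 with RLE size factors, 2037 with library totals alone), other low-count filters, other sets of libraries or controls, DESeq2 (2086) and limma. It was 2817 at an adjusted p under 0.05 and 600 when the fold itself was tested against 1.5 (glmTreat). Leaving out 1 mouse gave 1292 to 1717. Unlike the total, the 335 lowered genes did not stay within 1.5 times. They numbered 213 with library totals alone and 610 with limma and quality weights, beside 358 with RLE size factors and 438 with DESeq2. Over the fits with 1 mouse left out, the lowered count ran from 205 to 307. The share of raised genes among the DEG was 81.9%, with 89.5% under library totals, where the median of all genes was 0.111, and 93.7% under glmTreat. No named gene changed direction together with a call, and 6 that were not called (Ccr2, Cd74, Dsp, Gria1, Lrp5 and 9630013A20Rik) were called in at least 1 other setting. Of 126 DEG named with a fold change or level, 63 kept the call in every setting, 63 lost it in at least 1 setting that kept all mice (32 when glmTreat is set aside) and 39 lost it without at least 1 mouse. Lost without 6 or more of the 8 single mice were Lif, Osm, Cort, Gabrg3, Scn1a, Mcm2, Kit, Cacng3, Kcnt2, Rims1, Fibcd1, Gadd45g, Abca1, Npc2, Icam1 and Otof. Lost without 3 to 5 were Ccl12, Isg15, Ifit3, Nptx2, Npy, Penk, Slc6a11, Gabrg1, Gria3, Cacna2d2, Kcnq3, Cacna1i, Camk4, Erbb4 and Tfrc. Lost without 1 were Cxcl10 (kainate 44), Cxcl12 (saline 37), P2ry12 (saline 18), Cck (saline 41), Gria2 (kainate 44) and Kitl (saline 37), while Igfbp2 was lost without kainate 42 or saline 41 and Gpr101 without kainate 38 or saline 18. With at least 10 counts in every library, the medians of cell cycle (0.99) and of chemokine and cytokine genes (0.675) were lower. The median of leukocyte markers ranged from -0.102 with that filter to 1.75 with only the 24 PIZ libraries. List medians near 0 changed sign under another scaling for immature granule neurons and immediate early genes (RLE) and for mature granule cells and sterol genes (library totals).

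The tests of differences depended more on the setting, and the cause was not tested. For EZ minus PIZ, 14 genes became 127 at an adjusted p under 0.05, 3 with glmTreat, 8 with no filter for low counts, 1 with only the 4 groups compared (none of the 14), 98 with DESeq2 and 1879 with limma and quality weights. Leaving out 1 mouse gave 2 to 209. With the mouse as a fixed replicate block 37 genes were called. For the PIZ at day 3 the mouse as a random block of limma gave 1251 raised and 311 lowered genes. The libraries of a mouse correlated at 0.163 in this fit. Named DEG that lost their call in it were Cst7, Clec7a, Cxcl10, Ccl12, Lif, Osm, Mcm2, Cort and Kit. Cacna1i, Scn1a, Rims1, Gadd45g, Tfrc, Icam1, Gpr101 and Otof lost theirs too. For day 7 minus day 3, 5 genes became 16 at an adjusted p under 0.05, 0 with glmTreat, 161 with only the groups compared (14 higher and 147 lower), 33 with DESeq2 and 141 with limma and quality weights (38 higher and 103 lower). Leaving out 1 mouse gave 2 to 9. The saline PIZ of day 3 against days 7 and 14 gave 0 genes in edgeR, also without any 1 of its mice.

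With 4 mice a group and 20503042 to 24718937 counts a library, genes under 1 CPM rest on few counts.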
